A study of Mus musculus with 378 samples.

Results

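The genes described here lie in and around the mouse major histocompatibility complex, the H2 region of chromosome 17. Members were all genes whose start lies in a 4.5 Mb stretch of chromosome 17 that ends at 38 Mb in the authors' gene table, and 4 genes whose symbols begin with Rps, Rpl, Col or Nduf were left out. Of the 22180 genes in the table, 160 members passed edgeR's filter on low counts and were tested, and 39 more members did not pass. They were sorted into 2 classical class I genes, 18 other class I genes, 5 antigen processing genes, 10 class II genes, 4 complement genes, 18 other immune genes, 3 heat shock genes, 85 non-immune neighbours and 54 placeholder symbols or pseudogenes. The first 4 lists, 35 genes, are called antigen presentation genes below. Non-immune neighbours are the members left over after the other lists, so some of them may have an immune role.

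RNA was sequenced from islets isolated from the pancreas of Diversity Outbred mice. This stock was made by crossing several inbred strains, and its mice differ in the alleles they carry. Females and males alike were given a high-fat, high-sugar diet with 45% fat, and neither their age nor their founder alleles are stated. The titles number the mice, and 4 bands of 100 consecutive numbers were used as a factor beside sex. Of the females, 46, 46, 49 and 47 fell in bands 1 to 4, and of the males 45, 48, 50 and 47, with 1 library for each mouse. Libraries held 15120262 to 68757118 counts. The labels do not say what the bands stand for. Nothing in the labels says that a mouse gave more than 1 library. In 2 libraries labelled female, the level of Xist, which coats an inactivated X, was under 10 CPM (counts scaled to the size of the library), and the sex count is given with and without them.

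Class I molecules display peptides from inside the cell to CD8 T cells. The proteasome subunits Psmb8 and Psmb9 help to cut these peptides, the transporter Tap1 and Tap2 carries them into the endoplasmic reticulum, and tapasin (Tapbp) helps to load them onto class I heavy chains such as H2-K1 and H2-D1. Class II molecules display peptides taken up from outside and are made mainly by macrophages, dendritic cells and B cells; the region also holds complement genes, Tnf, heat shock genes and many genes with no immune role. In beta cells, class I genes are known to be induced by interferon.

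The 39 members that did not pass the filter were 3 other class I genes (H2-Q3, H2-T3 and H2-M10.2), 2 class II genes (H2-Oa and H2-Eb2), 7 other immune genes, 4 non-immune genes and 23 placeholders or pseudogenes. The 4 marker genes of the region were all well detected. H2-K1 and H2-D1 had the highest means of the class I genes, at 302.3 and 298.95 CPM, scaled with TMM factors, and Tap1 and Psmb8 averaged 57.8 and 43.9 CPM. The endocrine markers of the islet (6 of 6 tested) summed to at least 113590 CPM in every library. Macrophage markers (11 of 11 tested) summed to 50.8 to 165.5 CPM in females and 46.2 to 274.5 CPM in males. The median sum of the T cell markers was 0.234 CPM in the female and 0.141 CPM in the male libraries, and 0 of 4 passed the filter. In such bulk samples fewer cells of a type and less RNA per cell cannot be told apart.

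Several region genes were present in some mice and nearly absent in others. A gene was called on-off where a mixture of 2 normal distributions on log2 CPM placed mice in classes at least 2 log2 units apart, with at least 5% of mice in the smaller class and an upper class of at least 1 CPM. The distance also had to exceed 2 pooled class SDs (Ashman's D), and 2 classes had to gain over 10 units of the Bayesian information criterion on 1 class. This held for 10 of the 160 region genes tested, or 6.25%, beside 2.35% of all 16927 genes tested. Antigen presentation genes made up 6 of the 10 (6 of 30 tested), another 4 were placeholder symbols or pseudogenes (4 of 31), and 0 of the 81 non-immune neighbours tested met the rule.

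H2-Ea-ps (chr17:34342933-34344643, on build GRCm38, which holds for all gene positions given here) encodes the alpha chain of the class II molecule I-E and is annotated as a pseudogene because the reference strain does not transcribe it. In 26.7% of mice it had 0 to 0.114 CPM, and in the others it had 1.86 to 49.8 CPM with a median of 15.4 CPM. No mouse lay between these classes, and 83 libraries had a count of 0. A count of 0 allows up to 3 counts, which is 0.198 CPM in the shallowest library, for counting error only. The low class held 47 females and 54 males, and 24, 15, 27 and 35 mice of bands 1 to 4.

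Its partner H2-Eb1 (chr17:34305877-34316199), the beta chain of I-E, was also on-off, for the most part in other mice. It had 0.172 to 3.22 CPM with a median of 0.601 CPM in 43 mice, and 4.01 to 125.8 CPM with a median of 20.03 CPM in the others. Its low class held 30 females and 13 males. Only 5 mice were low for both chains. They were 4.95% of the mice low for H2-Ea-ps, whereas 11.4% of all mice were low for H2-Eb1. They were 11.6% of the 43 low for H2-Eb1, whereas 26.7% of all mice were low for H2-Ea-ps. The counts of both genes were whole numbers in every library. The window around the H2-Eb1 start is shown because it holds 2 letter strings known from class II promoters, in capitals: AACNGATG, the core of the X1 box, and CTGATTGG, the Y box. It is a RefSeq promoter window on build GRCm38.p6, plus strand, chr17:34305617-34305916, running from 250 bases before the start to 50 after it.
H2-Eb1: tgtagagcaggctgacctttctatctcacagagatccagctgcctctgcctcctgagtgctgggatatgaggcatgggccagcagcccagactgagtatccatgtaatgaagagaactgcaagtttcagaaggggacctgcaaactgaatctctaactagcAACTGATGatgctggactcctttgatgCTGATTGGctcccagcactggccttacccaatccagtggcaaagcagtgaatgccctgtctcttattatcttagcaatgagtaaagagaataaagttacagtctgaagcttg
The X1 string, searched on both strands, was found in windows of 7 of the 130 region genes that have one (5.38%), 4 of them class II genes (H2-DMb1, H2-DMb2, H2-Eb1 and H2-Eb2), and in 2.67% of all 27025 genes with a window. No window was at hand for H2-Ea-ps.

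The other 4 antigen presentation genes that were on-off belong to class I. H2-Q2 (chr17:35342242-35346762) had 0.361 to 16.3 CPM in 85 mice and 18.6 to 120.3 CPM in the others. Its low class held 36 of the 43 mice low for H2-Eb1 (83.7%), which lies 1036 kb away, and those 36 were 42.4% of the mice low for H2-Q2. Of all mice, 22.5% were low for H2-Q2 and 11.4% for H2-Eb1. H2-T22 (chr17:36037128-36042747), a ligand of gamma delta T cells, had 0.821 to 11.1 CPM in 35 mice and 11.1 to 241.1 CPM in the others. The classes touch, and 22 mice lay within 0.5 log2 units of the boundary. H2-Bl and H2-M2 were less cleanly parted, with 53 and 62 mice that near to the boundary. H2-Bl had a median of 0.172 CPM in 41.3% of mice and 2.35 CPM in the others, and H2-M2 a median of 0.240 CPM in 78 mice and 1.54 CPM in 300 mice.

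The widest gap belonged to BC023719, a symbol with no role known here, 74.3 kb from H2-T22. In 180 mice it had at most 3 counts after rounding (0 to 0.126 CPM), and in 198 mice it had 12.6 to 74.3 CPM. All but 8 of the 180 were at 0 only because the estimated counts were rounded. Before rounding, 0 libraries had a count of 0. The low class held 91 females and 89 males, and 39, 44, 49 and 48 mice of bands 1 to 4. All 76 mice low for C920025E04Rik, which starts 2.19 kb away, were low for BC023719. The bodies of these 2 genes overlap. Of the 50-base stretches of their transcripts, 29.4% for C920025E04Rik and 29.8% for BC023719 occur in another region gene. Low for BC023719 were also 62 of the 78 mice low for H2-M2 (79.5%), beside 47.6% of all mice. By contrast 0 of the 35 mice low for H2-T22 were low for BC023719. The other 2 were Gm8741, with a median of 0.0257 CPM in 29 mice and 2.61 CPM in the others, and Gm8752, with a median of 36.6 CPM in 94 mice and 1.41 CPM in the others. Of the 29 mice low for Gm8741, 24 (82.8%) were low for H2-Q2, 6.33 kb away, beside 22.5% of all mice. Counts of BC023719, Gm8741, Gm8752, C920025E04Rik, H2-T22, H2-Q2 and H2-Bl were whole in at most 1.85% of libraries. A fractional count is an estimate in which reads were divided between genes, and the levels of these genes are uncertain to that extent.

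**Figure D1:**
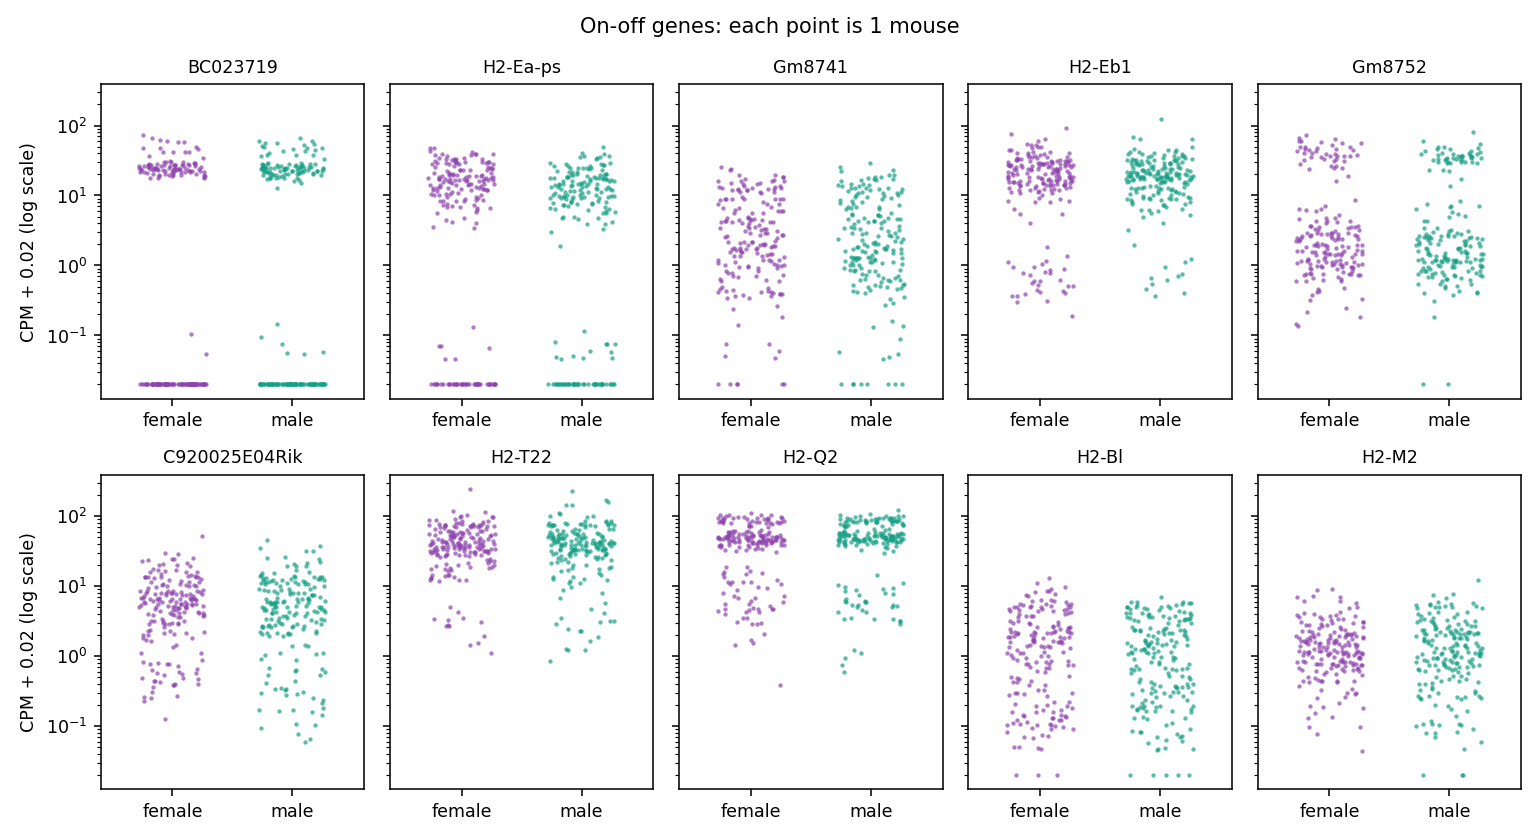
Level of the 10 on-off genes in each mouse, as CPM + 0.02 on a log axis, with females left of males in each panel. H2-Ea-ps and BC023719 have an empty stretch between their classes and H2-Eb1 and H2-Q2 a thinly filled one, whereas the points of Gm8741, C920025E04Rik, H2-Bl and H2-M2 run on without a gap and their classes rest on the mixture alone.

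The genes just inside the rule on distance were H2-M2, with classes 2.79 log2 units apart, and H2-Bl, at 3.35. Of those that reached 1 CPM and 2 log2 units, 4 lay outside the rule. A930015D03Rik, with classes 4.21 units apart, had an Ashman's D of 1.775, and Gm8909, at 3.16 units, gained only 7.56 units of the criterion. Cfb, at 2.07 units, had a gain of -4.09, and Hspa1a, at 2.20 units, had a gain of -11.8 and 4.42% of mice in its smaller class.

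The next question was whether antigen presentation genes moved with class I machinery encoded on other chromosomes. A score was made from 7 such genes (B2m, the class I light chain; Nlrc5, the class I transactivator; Tapbpl, Erap1, Psme1, Psme2 and Psmb10), and every gene was tested for a slope on it with edgeR's quasi-likelihood test, with sex and band as covariates. A slope is the log2 change per SD of the score between mice. Of the region genes tested, 68 rose and 25 fell with the score (93 of 160), beside 53.1% of all genes called, 23.5% upward and 29.6% downward. Slopes of at least 0.2 were reached upward by 39 region genes (24.4%) beside 4.24% of all genes, and downward by 2 beside 1.16%.

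Antigen presentation genes rose almost throughout: 28 of 30 tested, 25 of them by at least 0.2, with a median slope of 0.30. Of the 81 non-immune neighbours, 19 rose and 22 fell, with a median slope of -0.01, beside a median of -0.01 over all genes tested. The 2 antigen presentation genes that were not called were H2-Q1 (slope 0.14, adjusted p = 0.141) and the on-off gene H2-Q2 (0.07, adjusted p = 0.384).

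The classical heavy chains had moderate slopes. H2-K1 (chr17:33996017-34000333) had 139.5, 296.6 and 763.3 CPM as lowest, median and highest value in females, and 99.9, 269.4 and 753.6 CPM in males. H2-D1 (chr17:35262730-35267499) had 92.8, 282.3 and 595.9 CPM in females and 135.6, 284.8 and 706.4 CPM in males. The sexes overlapped over nearly the whole range of both genes. The slope was 0.26 ± 0.02 (SE, adjusted p = 1.16e-30) for H2-K1 and 0.22 ± 0.02 (adjusted p = 8.37e-36) for H2-D1.

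The 5 processing genes all rose with the score. Tap1 (chr17:34187553-34197225) had 18.5, 50.6 and 207.6 CPM in females and 15.45, 52.3 and 165.3 CPM in males, and its slope was 0.48 ± 0.02 (adjusted p = 1.7e-87). Psmb8 had 19.4, 40.95 and 138.1 CPM in females and 12.4, 38.8 and 113.8 CPM in males, and a slope of 0.47 ± 0.01 (adjusted p = 9.41e-164). The slopes of Psmb9, Tap2 and Tapbp were 0.45, 0.36 and 0.22, so that Tapbp, the most abundant at 240.9 CPM on average, had the smallest.

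Among the other class I genes, the Qa-2 genes H2-Q6 and H2-Q7 had slopes of 0.59 and 0.53, H2-T10 0.55, H2-Q5 0.41, H2-M2 0.40, H2-Q10 0.36, H2-Q4 0.34, H2-K2 0.33, H2-T22 0.33 and H2-T23, the mouse Qa-1 molecule, 0.31. H2-T24 and H2-Bl had 0.30 and 0.29. The slopes of the on-off genes H2-M2, H2-T22 and H2-Bl run over mice of both classes. H2-M3, which displays peptides that begin with formylmethionine, had a slope of 0.12. Many of these genes resemble each other: a median of 12.3% of the 50-base windows of their GENCODE M21 transcripts occurred in another region gene, with up to 36.4% for H2-Q5, and their values are uncertain where reads were divided. For Tap1, Tap2, Psmb8, Psmb9 and Tapbp this share was at most 1.89%. The counts of these processing genes were nonetheless whole in at most 0.529% of libraries, and those of H2-K1 and H2-D1 in 0%. Their levels are estimates to that extent too.

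Promoter windows of 5 genes that rose with the score are shown with the strings that a search of both strands found in them, in capitals: GGGANTCCC, the core of the NF-kB site of the class I enhancer; GAAANNGAA, the core of the interferon-stimulated response element; TGACGC, the start of the X2 box; and CTGATTGG, the Y box. All are RefSeq windows on GRCm38.p6, printed 5′ to 3′ along the gene, at chr17:34000298-34000597 for H2-K1 (minus strand, the first of 2 listed), chr17:35262844-35263143 for H2-D1 (plus), chr17:34187306-34187605 for Tap1 (plus), chr17:36042693-36042992 for H2-T22 (minus) and chr17:33909195-33909494 for Daxx (plus, the first of 3 listed).
H2-K1: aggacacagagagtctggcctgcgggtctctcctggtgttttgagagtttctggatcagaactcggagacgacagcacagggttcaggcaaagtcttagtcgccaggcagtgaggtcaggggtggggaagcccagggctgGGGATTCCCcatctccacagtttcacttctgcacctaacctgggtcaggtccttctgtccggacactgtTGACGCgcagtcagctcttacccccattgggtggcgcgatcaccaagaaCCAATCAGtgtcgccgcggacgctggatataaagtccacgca
H2-D1: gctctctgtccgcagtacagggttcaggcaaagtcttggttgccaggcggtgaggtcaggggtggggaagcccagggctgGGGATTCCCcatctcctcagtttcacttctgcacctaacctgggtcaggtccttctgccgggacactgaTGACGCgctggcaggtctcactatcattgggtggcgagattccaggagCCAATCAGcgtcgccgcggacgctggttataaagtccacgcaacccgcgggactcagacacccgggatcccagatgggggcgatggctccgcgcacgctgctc
Tap1: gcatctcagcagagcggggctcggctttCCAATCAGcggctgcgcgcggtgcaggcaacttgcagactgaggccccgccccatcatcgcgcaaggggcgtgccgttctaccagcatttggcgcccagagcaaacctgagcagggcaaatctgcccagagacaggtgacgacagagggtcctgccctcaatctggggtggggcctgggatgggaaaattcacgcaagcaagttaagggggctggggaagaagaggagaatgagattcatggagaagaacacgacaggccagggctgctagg
H2-T22: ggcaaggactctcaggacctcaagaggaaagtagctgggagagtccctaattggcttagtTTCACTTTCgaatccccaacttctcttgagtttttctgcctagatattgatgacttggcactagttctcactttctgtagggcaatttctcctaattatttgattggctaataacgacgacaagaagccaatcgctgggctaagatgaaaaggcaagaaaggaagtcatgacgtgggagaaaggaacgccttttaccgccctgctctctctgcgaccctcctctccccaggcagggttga
Daxx: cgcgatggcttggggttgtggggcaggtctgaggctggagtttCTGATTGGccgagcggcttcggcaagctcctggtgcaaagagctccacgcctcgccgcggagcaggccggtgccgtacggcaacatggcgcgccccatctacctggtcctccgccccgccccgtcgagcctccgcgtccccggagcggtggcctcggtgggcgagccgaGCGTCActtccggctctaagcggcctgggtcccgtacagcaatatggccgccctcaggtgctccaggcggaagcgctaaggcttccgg
The NF-kB string was found in 6 of 130 region genes (H2-K1, H2-D1, H2-Q6, H2-Q7, Brd2 and Gtf2h4), or 4.62%, and in 0.903% of all genes with a window. The Y box string was found in 21 region genes (16.2%), among them 11 of 25 antigen presentation genes and 6 of 72 non-immune neighbours, beside 4.7% of all genes. TGACGC was found in 18 region genes (13.8%) beside 8.37% of all genes, and GAAANNGAA in 12 (9.23%) beside 9.76%. The Tap1 window overlaps that of Psmb9, which is read the other way. A match describes these letters only, and variants of a string were not searched for or marked.

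Daxx was the non-immune neighbour with a slope that passed 0.2 upward. Daxx (chr17:33909414-33915589), a histone H3.3 chaperone and regulator of cell death, had 22.3, 39.3 and 122.7 CPM in females and 22.4, 40.1 and 99.5 CPM in males. Its slope of 0.29 ± 0.01 (adjusted p = 1.41e-66) compares with a median of 0.30 over the antigen presentation genes tested. Among non-immune neighbours of at least 1 CPM the next in size were Atp6v1g2 (-0.13), a subunit of the vesicular proton pump, then Clic1 (0.09), Ier3 (0.09), Ppp1r18 (0.09), Flot1 (0.09), Prrt1 (-0.08), Adamts10 (-0.08), Tubb5 (0.08) and Atat1 (-0.08). Below 1 CPM, Cdsn (-0.33) and the mitotic kinesin Kifc1 (-0.20), both named after their values were seen, fell with the score. The counts of Kifc1 were fractional in every library.

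**Figure D2:**
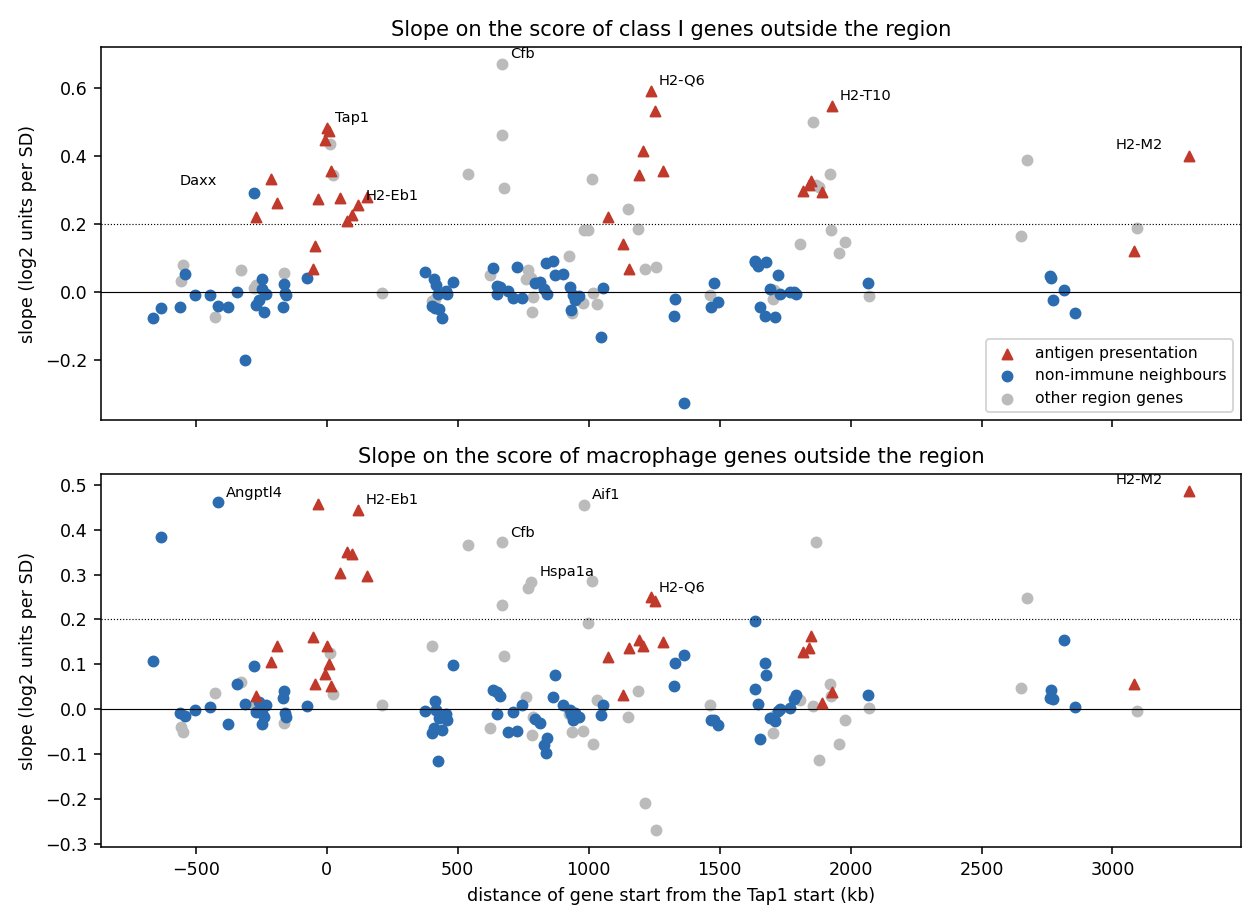
Slope of each region gene tested on the score of class I genes outside the region (top) and of macrophage genes outside the region (bottom), in log2 units per SD, against the distance of the gene start from that of Tap1 in kb. Red triangles are antigen presentation genes, blue circles non-immune neighbours and grey circles the other region genes; the dotted line marks a slope of 0.2, which 25 antigen presentation genes and, of the non-immune neighbours, Daxx pass in the top panel.

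A second score was made from 11 macrophage genes outside the region, among them Cd68, Csf1r, C1qa and Ctss. With it, 60 region genes rose and 14 fell (74 of 160), beside 38.7% of all genes called, 19.2% upward and 19.5% downward. By at least 0.2, 20 region genes rose (12.5%), beside 4.08% of all genes. The class I and macrophage scores were themselves related between mice (r = 0.244 over all libraries), and the class I score was closer to a score of 17 interferon-induced genes outside the region (r = 0.842).

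Class II genes led this response, with 7 of 8 tested upward, 6 of them by at least 0.2. H2-Aa and H2-Ab1, the 2 chains of I-A, had slopes of 0.35 ± 0.02 each (adjusted p = 3.2e-49 and 7.96e-47). H2-Aa had 19.4, 49.5 and 129.5 CPM in females and 20.5, 45.99 and 157.5 CPM in males. H2-Ab1 had 6.69, 22.1 and 75.7 CPM in females and 7.82, 20.2 and 98.6 CPM in males. The sexes overlapped for both chains. H2-DMb1, a chain of the peptide exchange factor H2-DM, had a slope of 0.46 and its partner H2-DMa 0.16. H2-Eb1, H2-Ob and H2-Ea-ps had slopes of 0.44, 0.30 and 0.30, and H2-DMb2 was not called (0.06, adjusted p = 0.412). Of the transcript windows of H2-DMb1 and H2-DMb2, 22.7% and 22.1% occur in another region gene. Their counts were whole in 1.85% and 0% of libraries, and their values are uncertain to that extent. H2-Eb1 and H2-Ea-ps are on-off, and their slopes run over mice of both classes. The part of the class in these slopes was not tested. On the class I score, class II genes had a median slope of 0.24, and on the macrophage score 0.33.

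Of the class I and processing genes tested, all but H2-M2 and H2-Q2 had a smaller slope on the macrophage than on the class I score. H2-K1 and H2-D1 had 0.14 and 0.12, and Tap1 0.14 (adjusted p = 3.14e-05); Tap2 and Tapbp were not called (0.05 and 0.03, adjusted p = 0.0733 and 0.11). Psmb8 and Psmb9 were called upward (0.10 and 0.08, adjusted p = 0.000653 and 0.0128). With both scores in the same fit that of Tap1 was not called (0.03, adjusted p = 0.273), and the macrophage slopes of Tap2, Tapbp, Psmb8 and Psmb9 were -0.043, -0.032, -0.028 and -0.047, each called downward, so that the calls of Psmb8 and Psmb9 reversed. H2-M2, an on-off gene, had a macrophage slope of 0.49 ± 0.07 (adjusted p = 3.54e-11). H2-Q6 and H2-Q7 had 0.25 and 0.24, and H2-Q2 was not called (0.14, adjusted p = 0.0655).

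The complement genes differed among themselves. Cfb, factor B of the alternative pathway, had the largest class I slope of all region genes, 0.67 ± 0.04 (adjusted p = 2.33e-49), and a macrophage slope of 0.37. C2 and C4b had class I slopes of 0.31 and 0.35 and macrophage slopes of 0.12 and 0.37. C4a was called with neither score (0.05 and -0.04, adjusted p = 0.269 and 0.369). C2 shares 38.7% of its transcript windows with other region genes, Cfb 73.01%, C4a 30.6% and C4b 34.6%, and their values are uncertain to that extent.

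Of the other immune genes, Tnf, an inflammatory cytokine, rose with both scores (0.33 and 0.29), as did Trim15 (0.39 and 0.25). Trim26, a ubiquitin ligase, rose less (0.17 and 0.05). Nfkbil1 and Trim39 were called with neither score. Aif1, a macrophage gene named after its value was seen, had a macrophage slope of 0.46 at 0.476 CPM on average. The heat shock genes Hspa1a and Hspa1b rose with the macrophage score (0.28 and 0.27) and had class I slopes of 0.04 and 0.06 (adjusted p = 0.571 and 0.35). The difference between these slopes was not tested. Hspa1l, the third gene of the HSP70 cluster, fell with both scores (-0.06 each, adjusted p = 0.00219 and 0.00619). Angptl4, which is listed as non-immune and encodes a lipase inhibitor, had a macrophage slope of 0.46 (adjusted p = 3.84e-23). The other non-immune neighbour that rose by at least 0.2 with the macrophage score was Myo1f (0.38, adjusted p = 6.95e-24). Myo1f averaged 0.284 CPM and was named after its value was seen.

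Sex was tested over all genes with the same tool, with band as covariate. Of the region genes, 24 were higher and 45 lower in females (69 of 160), beside 50.6% of all genes called, 21.7% upward and 28.8% downward. With the deposited variance-stabilised values, in a fit with no band term, the split was 35 higher and 36 lower. Without the 2 females of low Xist, with band kept, it was 31 and 40. Of the antigen presentation genes 2 were higher, 1 was lower and 27 of 30 were not called. Non-immune neighbours had 13 higher, 35 lower and 33 of 81 not called. The difference between the lists was not tested. Endocrine markers differed by sex too: Gcg, Sst and Ppy were higher in females (1.05, 0.50 and 0.39 log2 units), and Ins1, Ins2 and Iapp lower (-0.40, -0.33 and -0.19). Of the 5 stellate cell markers 3 were lower in females. Their part in the differences of region genes was not tested.

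The female minus male difference of H2-K1 was 0.08 ± 0.05 log2 units (SE, adjusted p = 0.170) and that of H2-D1 0.00 ± 0.04 (adjusted p = 0.991). With limma-voom H2-K1 was called higher in females (0.12, adjusted p = 0.0416). Over all bands, the 5 processing genes lay between -0.07 (Tap1) and 0.03 (Psmb8), with SEs of at most 0.06. In these fits 0 of the 5 were called by edgeR, DESeq2 or limma-voom, and 0 had an unadjusted p under 0.05 with any of them. Within single bands, all 5 differences were positive in bands 1 and 4 and negative in bands 2 and 3. For Tapbp they were 0.115, -0.106, -0.112 and 0.140 in bands 1 to 4. In band 4 edgeR called Tapbp (adjusted p = 0.0420). Its sex difference was not called as differing between bands (adjusted p = 0.0607). Called were H2-Q5, higher in females by 0.21 (adjusted p = 0.0215), H2-M3, lower with a difference of -0.09 (adjusted p = 0.00696), and H2-Ob, a chain of the class II regulator H2-O made by B cells, higher by 0.33 (adjusted p = 0.0025) at 0.333 CPM on average. B cell markers, 1 of 4 tested and higher in females, had a median sum of 3.59 CPM over the females and 2.76 CPM over the males, and their part in the H2-Ob result was not tested.

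C2, which acts in the classical complement pathway, had 2.46, 7.43 and 21.3 CPM in females and 1.28, 5.62 and 43.5 CPM in males. The groups overlapped, and C2 was higher in females by 0.30 ± 0.09 log2 units (adjusted p = 0.00164), with a positive difference in all 4 bands (0.11 to 0.40). C4b had 0.679, 3.20 and 17.04 CPM in females and 0.715, 3.28 and 41.3 CPM in males, and its difference was -0.23 ± 0.10 (adjusted p = 0.0414), with 0.06 in band 1 and -0.08 to -0.46 in the others. Its call was lost with limma-voom (-0.08, adjusted p = 0.503) and with 6 other settings. C4a (0.16, adjusted p = 0.0506) was not called, but was called with DESeq2 (0.16, adjusted p = 0.0381) and limma-voom (0.21, adjusted p = 0.00845). Cfb (-0.04, adjusted p = 0.778) was not called.

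Of the other immune genes, 5 were higher and 2 lower in females. Trim15 (0.25), Trim39 (0.04) and, below 1 CPM, Lta (0.25), Aif1 (0.23) and Ly6g5b (0.18) were higher, and Nfkbil1 (-0.24, adjusted p = 1.14e-06) and Trim26 (-0.06) were lower. Tnf was not called (0.07, adjusted p = 0.394). Hspa1a, an inducible HSP70 chaperone, had 2.78, 23.4 and 429.5 CPM in females and 2.16, 29.9 and 412.5 CPM in males, and the sexes overlapped over nearly the whole range. Hspa1a and Hspa1b were lower in females, with differences of -0.35 ± 0.12 each (adjusted p = 0.00775 and 0.00727), negative in all 4 bands, and Hspa1l was not called (-0.01, adjusted p = 0.799). With edgeR and no band term, the calls of Hspa1a and Hspa1b were lost (-0.32 and -0.34, adjusted p = 0.0848 and 0.0917). In single bands edgeR called only Hspa1b in band 2 (adjusted p = 0.0374). Hspa1a and Hspa1b share 60.3% and 62.3% of their sequence windows with other region genes.

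Among the non-immune neighbours of at least 1 CPM on average, Angptl4 had 0.0257, 0.716 and 2.75 CPM in females and 0.111, 0.897 and 15.8 CPM in males. The sexes overlapped, and the difference was -0.71 ± 0.11 log2 units (adjusted p = 1.41e-09), negative in each band (-0.47 to -1.32). Tcf19 (-0.29), a gene of dividing cells, Atp6v1g2 (-0.25), Prrt1 (-0.22) and Notch4 (-0.20), a Notch receptor of endothelium, were the next lowest. All 6 endothelial markers were lower in females too, with a median sum of 377.8 CPM over the females and 417.95 CPM over the males, and their part in the Notch4 result was not tested. Below 1 CPM, and named after their values were seen, Kifc1 had a difference of -0.69, the choline transporter gene Slc44a4 0.48 and Vwa7 0.47. Higher in females were Tubb5 (0.19), a beta tubulin with 56.8, 92.3 and 155.5 CPM in females and 48.2, 80.9 and 138.3 CPM in males, Mrps18b (0.13), a mitochondrial ribosomal protein, Prr3 (0.11), Fkbpl (0.09) and Clic1 (0.08).

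**Figure D3:**
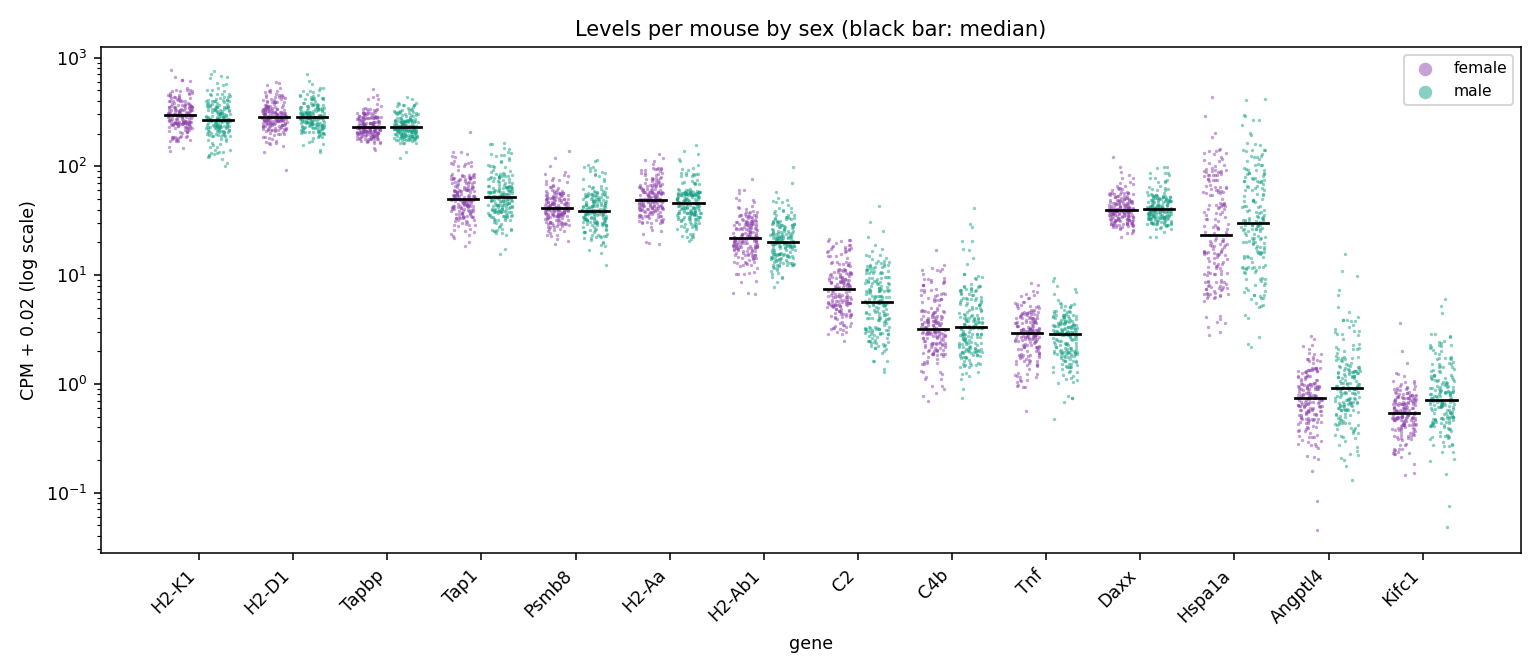
Level of 14 region genes in each mouse, as CPM + 0.02 on a log axis, females left of males for each gene, with the median as a black bar. The medians of H2-D1 lie together (282.3 and 284.8 CPM), those of C2 lie apart (7.43 and 5.62 CPM), and the points of the sexes overlap for every gene shown.

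The number bands differed in 85.6% of the 160 region genes, beside 87.9% of all genes called. Band 4 stood apart in several neighbours. Median levels of Hspa1b in bands 1 to 4 were 19.6, 13.3, 25.5 and 120.5 CPM, those of Prrc2a 166.9, 167.3, 179.4 and 344.6 CPM, and those of Nfkbil1 3.49, 3.25, 3.42 and 16.3 CPM. For H2-K1 they were 290.6, 260.4, 275.1 and 310.9 CPM. Band 4 was also the shallowest, with a median total of 23989712 counts, against 36442808 to 37214815 in the others. The part of depth in these differences was not tested.

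A sex difference that itself differed between bands was called for 3 region genes, Bag6, Prrc2a and Znrd1, beside 1.09% of all genes. Without band 4 it was called for 0 region genes by edgeR, with 19 at an unadjusted p under 0.05. The genes Bag6 and Prrc2a are neighbours; Bag6 is a chaperone for proteins that failed to reach the membrane.

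Antigen presentation genes varied more between mice than their non-immune neighbours. The median SD between mice of log2 CPM, with sex and band removed, was 0.70 for the 30 antigen presentation genes tested and 0.24 for the 81 non-immune neighbours, beside 0.34 for all genes tested. It was 1.12 for the 3 heat shock genes and 0.86 for the 4 complement genes. Among genes of at least 5 CPM it was 0.61 and 0.21, beside 0.24 for all genes of that level. The widest were BC023719 (4.41), H2-Ea-ps (3.45), Gm8750 (2.33), Gm8752 (2.23) and A930015D03Rik (2.13), of which BC023719, H2-Ea-ps and Gm8752 were on-off. Spread was tested in genes of at least 1 CPM, which left out 27 region genes, and differed between the sexes in 8. The spread was larger in males in these 8 and in females in 0, beside 4.96% of all genes called, 4.87% with the larger spread in males and 0.0907% in females. At an unadjusted p under 0.05, 2 region genes had the larger spread in females and 28 in males. Without band 4 only 1 of the 8 was called. The 8 were Tcf19 (SD 0.37 in females and 0.56 in males), Notch4, Zbtb12, C2, Cfb, H2-M2, Gm20427 and Gm16279.

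Co-variation between nearby region genes was weak on the whole. The median Pearson r between region genes, over all mice with sex and band removed, was 0.15 for 97 pairs whose starts lie within 10 kb, 0.11 at 10 to 50 kb, 0.06 at 50 to 200 kb, 0.04 at 200 to 1000 kb and 0.04 beyond. Within 10 kb it was 0.26 with neither sex nor band removed, and 0.071 among members whose counts are whole in most libraries. Over all autosomal genes tested the medians at those distances were 0.18, 0.11, 0.06, 0.03 and 0.01. Within 200 kb the region lay within 0.03 of all autosomal genes. Pairs share libraries, depth and genes, so these values are a description.

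Co-variation between antigen presentation genes was nearly level from 50 kb on. For pairs of them the median r was 0.73 within 10 kb (5 pairs, or 0.46 over the 4 whose gene bodies do not overlap), 0.43 at 10 to 50 kb (33 pairs), 0.23 at 50 to 200 kb, 0.22 at 200 to 1000 kb and 0.23 beyond. For pairs of non-immune neighbours it was 0.20, 0.13, 0.11, 0.10 and 0.07. For 1 antigen presentation gene with 1 non-immune neighbour it was 0.39 within 10 kb (2 pairs, 1 of them Daxx with Tapbp), 0.06 at 10 to 50 kb and 0.02 at each greater distance. Pairs that hold any of the 6 antigen presentation genes that were on-off are included, over mice of both classes.

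**Figure D4:**
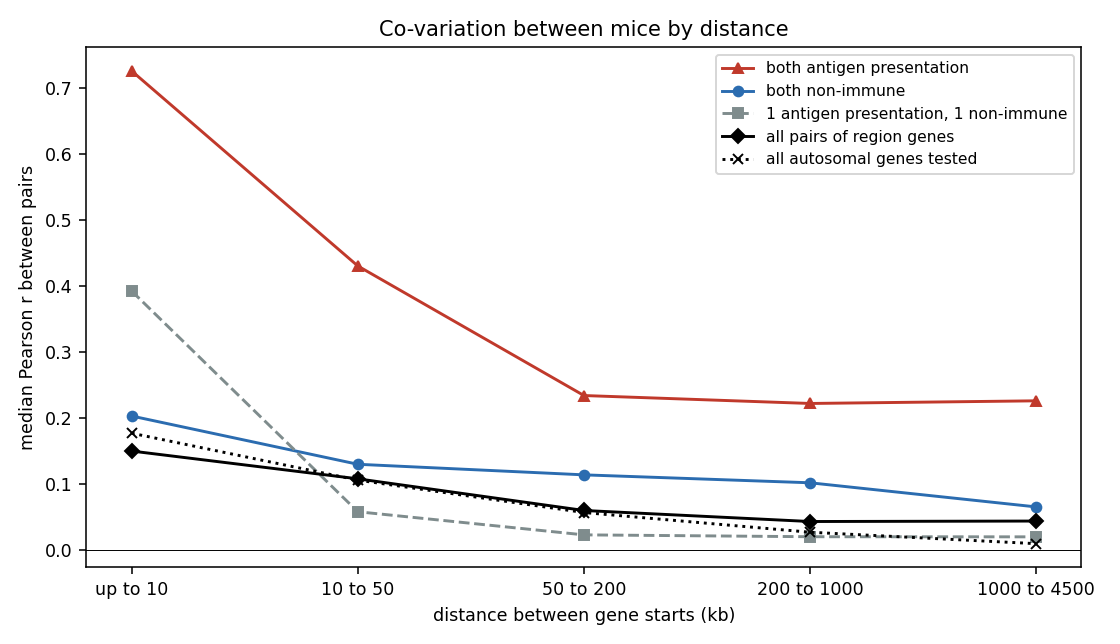
Median Pearson r between mice for pairs of genes on the same chromosome, by distance between gene starts in kb. Pairs of antigen presentation genes stay at 0.22 or above at every distance, whereas pairs of 1 antigen presentation gene and 1 non-immune neighbour lie at 0.02 beyond 50 kb.

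Of the single pairs, 5 were fixed by name: Psmb9 with Psmb8, Psmb9 with Tap1, H2-Ab1 with H2-Aa, H2-K1 with H2-D1 and Tapbp with H2-K1. They were tested by permuting mice within sex and band, with 100000 resamples, two-sided, and Benjamini-Hochberg adjustment over the r and rho of 14 pairs. The r and rho of these 5 reached the smallest adjusted p the permutations could give, 1.04e-05. The other pairs below were chosen for a high or a negative r, or after their values were seen, and are described with no test. The tightest pair was Hspa1b with Hspa1a (12.8 kb apart, r = 0.978, rho = 0.972, 0.977 without the 2 farthest mice), 2 genes that share much sequence. Psmb9 with Psmb8 (15.7 kb) had r = 0.929 and rho = 0.917, and Psmb8 with Tap2 (5.81 kb) r = 0.883 and rho = 0.859. Psmb9 with Tap1, whose gene bodies overlap at their starts, had r = 0.862 and rho = 0.833. With both scores removed these 3 fell to r = 0.661, 0.672 and 0.581.

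The chains of I-A, H2-Ab1 with H2-Aa (19.5 kb), had r = 0.885 and rho = 0.858, and 0.859 to 0.943 within bands. Bag6 with Prrc2a (13.9 kb), both non-immune, had r = 0.887 and rho = 0.857, and still 0.888 with both scores removed. H2-K1 with H2-D1, 1266.7 kb apart, had r = 0.536 and rho = 0.530, with 0.473 to 0.668 within bands and 0.291 with both scores removed. Tapbp with H2-K1 (80.1 kb) had r = 0.465 and rho = 0.431, with 0.109 once both scores were removed. Without the 2 farthest mice r was 0.925 for Psmb9 with Psmb8, 0.877 for Psmb8 with Tap2, 0.858 for Psmb9 with Tap1, 0.880 for the chains of I-A, 0.877 for Bag6 with Prrc2a, 0.531 for H2-K1 with H2-D1 and 0.445 for Tapbp with H2-K1.

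The pairs of Daxx were chosen after their values were seen. Daxx with Tap1, 278.1 kb apart, had r = 0.939 and rho = 0.935 (0.936 without the 2 farthest mice, 0.920 to 0.957 within bands, 0.867 with both scores removed). Daxx with Tapbp, its neighbour at 6.49 kb, had r = 0.686 and rho = 0.622 (0.665 without the 2 farthest mice, 0.309 with both scores removed).

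The most negative r within 200 kb came from the H2-T cluster. A930015D03Rik with H2-T10 (121.4 kb) had r = -0.487 and rho = -0.462 (-0.490 without the 2 farthest mice, -0.439 to -0.562 within bands). The other 2 pairs of this kind hold BC023719, whose mice fall into separate clusters, so no pooled r is given. Within the mice that were high for both, H2-T22 with BC023719 had r = -0.03. Within the 198 mice high for BC023719, A930015D03Rik with it had r = -0.62 and rho = -0.35. Of the 50-base stretches of the transcripts, 26.1% for A930015D03Rik and 32.8% for H2-T10 occur in another region gene. The counts of both genes were fractional in every library. The part of divided reads in these negative values was not tested. H2-Aa with H2-Eb1 (23.1 kb), chosen after its value was seen, had r = 0.48 in the mice high for H2-Eb1 and 0.61 in the 43 low for it.

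**Figure D5:**
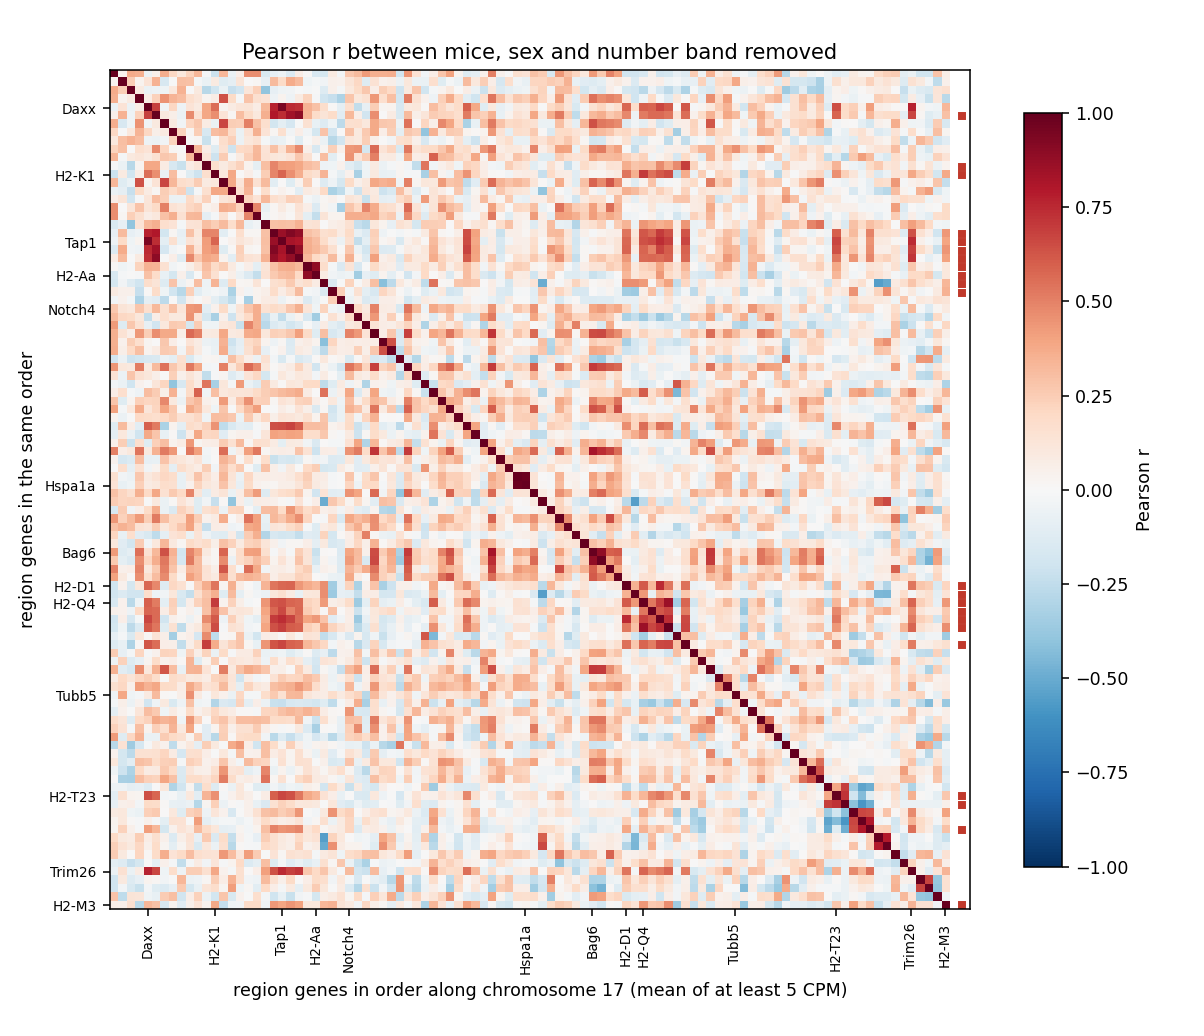
Pearson r between mice, with sex and band removed, for every pair of the 100 region genes tested that have at least 5 CPM, in their order along the chromosome; red is positive, blue negative, and the red squares at the right edge mark antigen presentation genes. The blocks on the diagonal at Tap1 and Hspa1a are Psmb9, Tap1, Psmb8 and Tap2 (r of 0.862 or more for the pairs named) and the 2 HSP70 genes (0.978), and the rows of Daxx and Tap1 carry the same colours across the map.

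The genes closest in pattern over the whole table, among 14332 genes of at least 1 CPM and over all mice, differed by class. For Tap1 they included Stat2 (r = 0.941), Daxx (0.939), Irgm2, Oasl1 and Irf7 (0.925), of which Daxx lies in the region. For H2-Aa they were H2-Ab1, Cd74 (0.831), Ctss, Cd86, Il10ra and Nckap1l. The other class II gene looked at, H2-Eb1, has mice in separate classes, so no pooled r is given for it. The 6 genes nearest to it, ranked by an r over mice of both classes, were all on chromosome 17. Cyp4f16, Pde9a and Cyp4f17 lie outside the region and Stk19, H2-Q2 and H2-D1 in it. The part of the classes in this ranking was not tested. For H2-K1 the nearest genes were H2-Q4 (0.696), H2-Q7, H2-Q6, Tap1, Daxx and, outside the region, B2m (0.555).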

How the data were processed

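Poly(A) RNA was sequenced from pancreatic islets per the labels' protocols, and each title names another mouse. The authors deposited a table of expected counts per gene (67.7% of values are whole numbers) and a table of variance-stabilised values on a log2 scale. The submitters' processing notes name build GRCm38 and DESeq2, and no source used here names the counting tool. The expected counts were rounded to whole numbers. Groups were the sexes in the sample titles, with 4 bands of mouse numbers as a factor. Totals of 15120262 counts or more per library make counting error small for all but the lowest genes, and intervals for it were not drawn. Replicates are single mice, whose numbers do not recur across the sexes.

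Sex, band and slopes were tested with edgeR's quasi-likelihood test (version 4.0.16 in R 4.3.3) over all genes that passed filterByExpr, with TMM factors and Benjamini-Hochberg adjustment over the 16927 genes tested, at a threshold of 0.05. Alternatives were DESeq2 (version 1.42.0), its size factors, limma-voom (version 3.58.1), the deposited values, and others named in the closing section. The fits of sex and slopes to the deposited values had no band term. CPM are the rounded counts scaled to library size with TMM factors. Scores are mean log2 CPM (prior count 2) of genes on other chromosomes with sex and band removed, except that 1 macrophage gene, Adgre1, also lies on chromosome 17, outside the region. The fits recovered known changes when tested on simulated data. Mixtures and correlations used Python 3.11.15 with NumPy 2.4.6 and pandas 2.3.3.

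Members, lists and tests were chosen with earlier results of these data known, and H2-Q3, H2-M10.2 and G6b were added to the lists once the gene table had been seen. The genes named were the members of the class I classical, processing, class II, complement and heat shock lists, other class I and other immune genes of at least 1 CPM, the 5 non-immune genes of at least 1 CPM with the largest sex difference each way, the 10 with the largest class I slope, on-off genes, the 5 genes of widest spread, and the pairs of largest and most negative r, with others said to be chosen after their values were seen. In GENCODE M21, all genes but 1 had an entry and 165 had the same coordinates. A gene that the rule on likeness to Tap1 would name is not reported here.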

Additional observations from a re-analysis of the deposited data

Results flagged for a closer look

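The sex difference of 3 non-immune genes differed between the number bands by the test of the interaction itself. This is 3 of 160 tested beside 1.09% of all genes, and without band 4 edgeR called it for 0 region genes, with 19 at an unadjusted p under 0.05. For Bag6 the adjusted p of edgeR's quasi-likelihood test was 0.0251, and the female minus male difference in log2 units was 0.00, -0.16, -0.08 and 0.08 in bands 1 to 4. For Prrc2a the adjusted p was 0.032, with differences of -0.04, -0.17, -0.09 and 0.10. For Znrd1, which encodes a subunit of RNA polymerase I, the adjusted p was 0.0495, with differences of -0.04, 0.13, 0.11 and -0.04. Bag6 and Prrc2a changed sign between band 2 and band 4 together, and r between them was 0.887.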

How the results depend on the processing

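No paired analysis was possible because mouse numbers do not recur across the sexes. Within single bands the sex difference was called for 15, 36, 22 and 24 region genes in bands 1 to 4, beside 69 in all, and these fits hold fewer mice. Of the 69, 7, 1, 2 and 11 had the opposite sign in bands 1 to 4, and of these Bag6 and Prrc2a, in band 4, were called there. Among the called genes followed by name, differences changed sign in band 1 for C4b (0.061), Trim26 (0.022), Bag6 (0.0010) and Ppp1r18 (0.068), in band 2 for Trim15 (-0.20), in band 3 for Adamts10 (0.012) and in band 4 for Trim26 (0.065), Bag6 (0.077) and Prrc2a (0.097). With an interferon list in place of the class I list the slope of Angptl4 was 0.17, beside -0.04. With both scores in 1 fit the macrophage slopes of Tap2, Tapbp, Psmb8 and Psmb9 were -0.043, -0.032, -0.028 and -0.047. Without band 4 the interaction was called for 0 genes and the spread difference for 1. Among genes of at least 5 CPM the spread difference was called for 5. Slopes of at least 0.2 were called for 41 genes with the class I score and 20 with the macrophage score. The median r within 10 kb was 0.26 with neither sex nor band removed and 0.071 among members whose counts are whole in most libraries, beside 0.15. The gap in median SD between antigen presentation and non-immune genes was 0.30 with the deposited values and 0.39 at 5 CPM or more, beside 0.46. On-off genes numbered 8 to 12 under every alternative run. Of the values of single genes under all settings, 1424 kept their direction and their side of the threshold, 49 gained the threshold, 8.72% lost it and 14 changed sign. The causes were not tested. Genes at a count of 0 are limited by depth, at up to 3 counts.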
